A study of Mus musculus with 6 samples.

Results

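Circadian clock genes were followed in mouse kidney through 10 named genes: the activators Arntl and Clock, the repressors Per1, Per2, Per3, Cry1 and Cry2, the nuclear receptor Nr1d1, and the output factors Dbp and Hlf. Each gene was represented by the array probe that carried only its symbol and had the highest mean over all arrays. Under that rule 9 of the 10 genes had a probe, out of 18048 genes with such a probe in the whole series. The only probe listing Dbp carried 3 symbols, so Dbp has no value here. The kidneys came from 3 wild-type and 3 homozygous mutant animals, titled WT1 to WT3 and KO1 to KO3, with a different animal and 1 single-colour CodeLink array per sample. Each piece of kidney was frozen after perfusion with saline, and polyA RNA was labelled with biotin. The mutated gene, strain, age, sex, lighting schedule and hour of sampling are not stated in the labels.

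The mammalian clock is a transcriptional feedback loop that runs in nearly every cell, kidney tubules included. ARNTL (also called BMAL1) pairs with CLOCK and binds E-box elements, switching on the Per and Cry genes, whose proteins return to the nucleus and block the same pair. NR1D1 (REV-ERB alpha) represses Arntl through ROR elements, and the PAR bZIP factors DBP, HLF and TEF carry the rhythm to output genes through D-box elements. Because Arntl peaks roughly opposite to Per, Nr1d1 and Dbp, levels of these genes in a tissue depend on the hour at which it was taken. A single harvest per animal therefore gives 1 point on each animal's rhythm.

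Letters that match the elements named above were found in promoters of some members, from RefSeq sequence of GRCm38.p6. Windows of 250 bases before to 50 bases after the start site were available for 9 of the 10 genes. The E-box was searched as CACGTG, the D-box as TTATGTAA or TTACGTAA, and the core of the ROR element as TAGGTCA, each on both strands, and no matches overlapped. The stretches with a match are shown because they hold letters that match these 3 elements, with the matches in capitals, in the direction of the gene.
Per1: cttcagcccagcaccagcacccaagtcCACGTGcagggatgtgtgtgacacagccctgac
Cry1: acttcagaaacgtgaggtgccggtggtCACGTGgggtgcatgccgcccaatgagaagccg
Per3: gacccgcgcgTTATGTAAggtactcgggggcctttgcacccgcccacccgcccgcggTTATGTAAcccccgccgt
Arntl: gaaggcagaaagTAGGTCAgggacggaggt

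The Per1 stretch lies at chr11:69098756-69098815 on the plus strand and that of Cry1 at chr10:85185082-85185141 on the minus strand, each with an E-box. The Per3 stretch, at chr4:151044806-151044880 on the minus strand, holds a pair of D-boxes. The Arntl stretch, at chr7:113207529-113207558 on the plus strand, holds the ROR element core. Of all 32851 promoter windows of this length, 7.15% held the E-box, 1.06% the D-box and 2.61% the ROR element core. Counted by gene, the shares were 8.09%, 1.23% and 2.97% of 27025 genes. Of the 9 clock genes with a window, 2 held the E-box, 1 the D-box and 1 the ROR element core. The remaining clock genes had no match in these windows. A match describes the letters in these windows and was not tested for binding in these kidneys.

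Levels are given as log2 intensity relative to the array median, and differences as mutant minus wild type on the same log2 scale. Signals below 0.60 cannot be told from background, a limit set from the distribution of the dim values, and signals were floored at -1.79. Clock, Nr1d1 and Hlf lay above the limit on all 6 arrays. Arntl lay above it on 5 of them. Per3, Cry1 and Cry2 lay below it on all 6, Per1 was above it on 2 wild-type arrays, and Per2 on 1. Markers of the proximal tubule, the main tubule of the kidney cortex, were above the limit on all arrays in 7 of 8 cases, and those of the thick ascending limb and distal convoluted tubule in 4 of 4. Of 4 measured steroidogenic genes of the adrenal, a gland on the kidney's upper pole, Star, Cyp11a1 and Hsd3b1 lay below the limit on all arrays that measured them, and Cyp21a1 exceeded it on 1, mutant replicate 1, at 0.79. On replicate 1 of each genotype Xist stood at 2.21 in wild type and 3.00 in mutant, against at most -0.21 on the other arrays, and the Y-linked Eif2s3y was at the floor there and at 3.01 to 3.46 elsewhere. A further Xist probe was below the limit on every array that measured it. Replicate 1 of each genotype therefore carried female-type, and replicates 2 and 3 male-type, sex-linked transcripts.

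None of the 8 clock genes that could be tested passed an adjusted p of 0.05 between the genotypes, and 1, Hlf, had an unadjusted p under 0.05 (limma with Benjamini-Hochberg adjustment over all probes). Over the whole array 5.39% of the 25834 probes passed, 4.11% higher and 1.27% lower in mutants, and 16.9% had an unadjusted p under 0.05. Counted as genes with 1 probe each, 7.26% passed, 5.67% higher and 1.59% lower. Per3 was too dim to enter the test. The 8 differences ran from -0.69 for Cry2 to 1.05 for Arntl, 2 above 0 and 6 below, with a median of -0.25 against 0.06 over all probes. Of those below 0, Per1, Per2, Cry1 and Cry2 lay mostly or wholly under the low-signal limit. The difference of Arntl was 0.19 without wild-type replicate 1. Little can therefore be read from these directions and this median. The genotypes did not overlap for 1 of the 8, Per1, against 23.2% of the 22989 probes measured on all arrays. In bulk tissue, fewer cells of a type and less RNA per cell cannot be told apart.

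**Figure D1:**
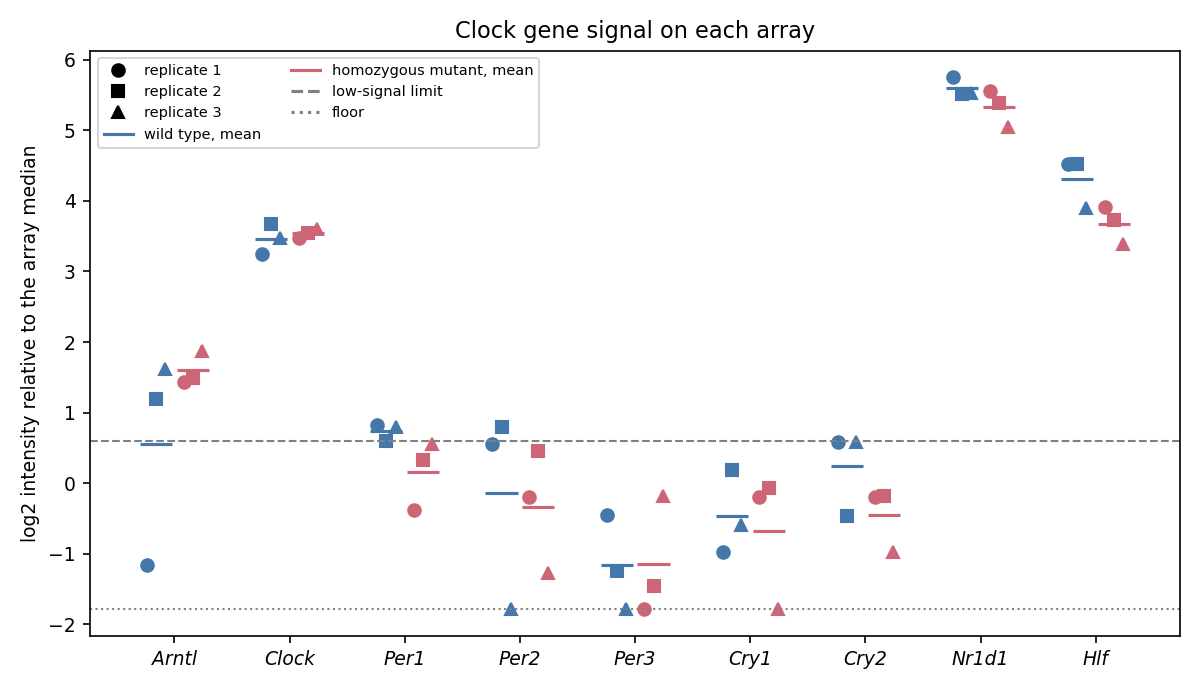
Log2 intensity relative to the array median of the 9 measured clock genes (vertical axis) on each of 6 arrays, with circles, squares and triangles for replicates 1, 2 and 3, short lines for the mean of 3 arrays of a genotype, a dashed line at the low-signal limit of 0.60 and a dotted line at the floor of -1.79. Clock, Nr1d1 and Hlf lie above the limit throughout, Arntl falls to -1.16 on wild-type replicate 1, and Per3, Cry1 and Cry2 stay below the limit.

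Arntl, the activator without which the loop does not run, read -1.16, 1.19 and 1.61 in wild-type replicates 1 to 3 and 1.43, 1.49 and 1.87 in the mutants. A single wild-type array was thus far below the other 5, and the remaining values of the genotypes overlapped. The mean was 0.55 ± 1.49 (SD, n = 3) in wild type and 1.60 ± 0.24 in mutants, a difference of 1.05 ± 0.55 (SE) with a 95% interval of -0.13 to 2.23 and an adjusted p of 0.367. When WT1 was left out the difference was 0.19 (limma, adjusted p = 0.803), and between the medians of the genotypes it was 0.30. The large difference in means therefore rested on that array. Arntl has 1 probe with its symbol alone, so no further probe bears on the low value.

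Clock, the DNA-binding partner of ARNTL, was among the steadiest of the clock genes. It read 3.25, 3.68 and 3.47 in wild type and 3.47, 3.54 and 3.61 in mutants. The mutant values lay inside the wild-type range. The difference was 0.07 ± 0.15 (adjusted p = 0.868), and its 95% interval ran from 1.19-fold lower to 1.32-fold higher in mutants. Clock was lower, not higher, in mutants after quantile normalization or cyclic loess, at -0.069 and -0.039, and without wild-type replicate 1, at -0.034.

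Among the repressors, Per1, which also answers glucocorticoid and cAMP signals directly, read 0.82, 0.59 and 0.79 in wild type and -0.39, 0.32 and 0.55 in mutants. All mutant values were below all wild-type values, as in 8.32% of probes, but the mutant values also lay below the low-signal limit. The difference was -0.57 ± 0.39 with a 95% interval of -1.41 to 0.26 and did not pass (limma, adjusted p = 0.517). The wild-type mean was only 1.10-fold above the limit, and wild-type replicate 2 lay just below it. No smallest difference is therefore read for Per1.

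Per2, the Period protein most needed for a sustained rhythm, read 0.55, 0.80 and -1.79 in wild type and -0.20, 0.45 and -1.27 in mutants. In each genotype replicate 3 was the lowest, at the floor in wild type. The genotypes overlapped over nearly the whole range, with a difference of -0.20 ± 0.68 (adjusted p = 0.927). The sign turned when single arrays were left out: the difference was -1.02 leaving out the third wild-type array and 0.27 leaving out the second. Per3, a Period protein with a smaller part in the core loop, has 3 probes with its symbol alone. Its brightest read between -1.79 and -0.46 in wild type and between -1.79 and -0.19 in mutants.

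The cryptochromes, the strongest repressors of the ARNTL and CLOCK pair, read below the low-signal limit on every array. Cry1 read -0.98, 0.18 and -0.59 in wild type and -0.20, -0.07 and -1.79 in mutants. Cry2 read 0.59, -0.46 and 0.58 in wild type and -0.19, -0.18 and -0.98 in mutants. The genotypes overlapped for each. The differences were -0.22 ± 0.59 for Cry1 (limma, adjusted p = 0.901) and -0.69 ± 0.49 for Cry2 (adjusted p = 0.540). Their 95% intervals were wide, -1.48 to 1.04 and -1.73 to 0.36. The sign for Cry1 turned to 0.33 when mutant replicate 3, at the floor, was left out, and to 0.099 when the second wild-type array was.

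Nr1d1, the heme-binding repressor of Arntl, read 5.75, 5.51 and 5.53 in wild type and 5.55, 5.38 and 5.05 in mutants. Wild-type replicate 1 was the highest array and mutant replicate 3 the lowest, and the genotypes overlapped narrowly. The mean was 5.60 ± 0.13 in wild type and 5.33 ± 0.26 in mutants (SD, n = 3 each). The difference of -0.27 ± 0.15 did not pass (adjusted p = 0.418), and its 95% interval ran from 1.52-fold lower to 1.04-fold higher in mutants.

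Hlf, a PAR bZIP activator that drives detoxification and transport genes with DBP and TEF, came closest to a difference. It read 4.52, 4.52 and 3.89 in wild type and 3.92, 3.73 and 3.38 in mutants. The 2 highest arrays were wild type and the 2 lowest were mutant, while wild-type replicate 3 fell just below mutant replicate 1. The mean was 4.31 ± 0.36 in wild type and 3.68 ± 0.27 in mutants, or 1.56-fold lower, with a difference of -0.64 ± 0.19 and a 95% interval of -1.05 to -0.23 that is not adjusted for the number of probes. The adjusted p was 0.0748 (limma). It was 0.0347 with quantile normalization, 0.0420 with cyclic loess, and 0.0239 when the third wild-type array was left out. It was 0.356 with no intensity trend in the variance, and between 0.0721 and 0.247 without any other single array. In replicates 2 and 3 alone, which share their sex-linked pattern, the difference was -0.65 (limma, adjusted p = 0.141). Proximal tubule markers also differed between the genotypes, with 4 of 8 lower in mutants, against 1.59% of genes over the whole array. Their summed intensity was 324 to 334 times the array median in wild type and 174 to 219 in mutants. The part of the proximal tubule in the Hlf values was not tested.

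**Figure D2:**
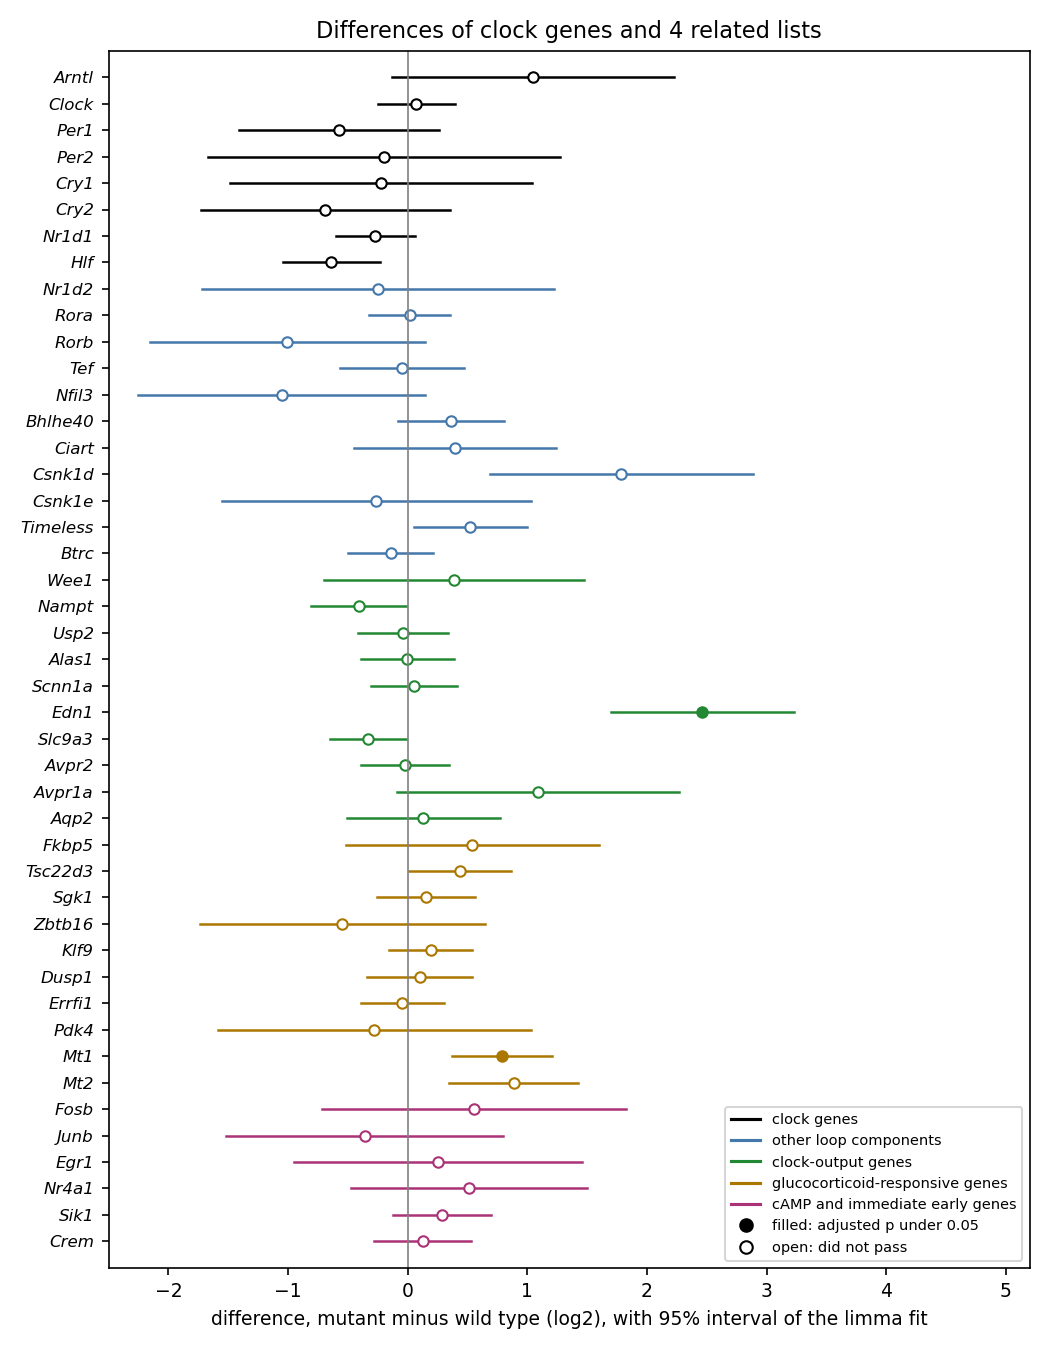
Mutant minus wild type on the log2 scale (horizontal axis) for the 8 tested clock genes and the tested members of 4 related lists, with lines for the 95% interval of the limma fit over 6 arrays and filled points for an adjusted p under 0.05. Only Edn1 at 2.46 and Mt1 at 0.79 are filled, and of the clock genes only the interval of Hlf leaves out 0.

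Of 17 further components of the loop 15 had a probe and 11 were tested. Of these, 0 passed and 2 had an unadjusted p under 0.05 (limma), against 16.9% of all probes tested. Their median difference was -0.05, with 5 above 0 and 6 below. Csnk1d, the casein kinase that marks PER proteins for breakdown, read -1.79, -1.17 and -0.72 in wild type and 0.84, -0.10 and 0.93 in mutants. The genotypes did not overlap, but all wild-type values and the mutant mean of 0.56 lay below the low-signal limit, and the difference of 1.78 ± 0.51 did not pass (adjusted p = 0.0623). Timeless, which in mammals acts mainly at replication forks, read 1.46 to 1.56 in wild type and 1.89 to 2.27 in mutants without overlap (0.52 ± 0.22, adjusted p = 0.232). Every mutant value lay above every wild-type value for 3 of the 9 list members with a value on each array. Over the whole array, 14.9% of 22989 such probes showed this separation with mutants higher. Nfil3, the repressor that competes at D-boxes, differed by -1.05 ± 0.56, or by -0.44 when mutant replicate 3, at -1.33, was left out, and did not pass (adjusted p = 0.374). It was above the low-signal limit on only 2 wild-type arrays and 1 mutant array, with a mutant mean of -0.10, so the size of its difference is uncertain. The nuclear receptor Rorb lay below the low-signal limit on all arrays, at -0.29 to -0.02 in wild type and -1.79 to -0.26 in mutants, so no difference is read from it.

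In the list of clock-output genes 1 of 10 tested members rose and 0 fell, against 5.67% of genes higher and 1.59% lower over the whole array, so the count does not set the list apart. Edn1, which encodes the vasoconstrictor endothelin-1 and is a PER1 target in collecting duct, read -0.38, 0.18 and -0.91 in wild type and 2.27, 2.20 and 1.80 in mutants. Every wild-type array lay below the low-signal limit and every mutant array above it, so the signal was at least 2.82-fold higher in mutants (limma, adjusted p = 0.000837). The call held in each of the 20 alternatives run, with an adjusted p of at most 0.0395. Nampt, of NAD synthesis, differed by -0.41 ± 0.18 and the sodium-proton exchanger Slc9a3 by -0.33 ± 0.15, and neither passed (adjusted p = 0.279 and 0.280). The vasopressin receptor Avpr1a differed by 1.09 ± 0.55 (adjusted p = 0.346), with wild-type replicate 1 at -1.22 and the other arrays between 1.00 and 1.63, and by 0.24 when that array was left out.

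Genes that answer glucocorticoids, hormones that can reset the kidney clock through Per1, gave 1 increase among 10 tested, against 5.67% of genes higher over the whole array, so this count does not set the list apart either. Mt1, a zinc-binding metallothionein also induced by metals and inflammation, rose from 7.36 ± 0.23 to 8.15 ± 0.21 (SD, n = 3 each), a difference of 0.79 ± 0.20 (limma, adjusted p = 0.0310). The call did not hold when WT1, WT3, KO1 or KO2 was left out (adjusted p = 0.0824, 0.135, 0.0753 and 0.150), with replicates 2 and 3 alone (0.114), or when the variance was fitted without an intensity trend (0.182). Mt2, its neighbour in function, differed by 0.89 ± 0.25 and the glucocorticoid-induced leucine zipper gene Tsc22d3 by 0.44 ± 0.20, and neither passed (adjusted p = 0.0583 and 0.283). Mt2 did pass with the dimmest 50% of probes left out, with robust variance and with array weights. Klf9, a glucocorticoid-induced zinc finger factor, differed by 0.19 ± 0.16 on its brightest probe and by -0.17 ± 0.14 on a further one. Neither passed (limma, adjusted p = 0.614 and 0.609).

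The cAMP and immediate early genes can induce Per1 or are induced beside it. Of 6 tested, 0 passed and 0 had an unadjusted p under 0.05 (limma), against 16.9% of all probes tested. The kinase gene Sik1 differed by 0.29 ± 0.19 and the orphan receptor Nr4a1 by 0.51 ± 0.46, the latter by 0.050 when mutant replicate 1, at 2.18, was left out. The AP-1 gene Fosb differed by 0.55 ± 0.59, with wild-type replicate 1 at -1.48, and by -0.32 when that array was left out. Its wild-type mean of 0.26 and its value on mutant replicate 1, 0.52, lay below the low-signal limit. Junb, of the same family, lay below the low-signal limit on all arrays, between -1.79 and -0.43, so no difference is read from it. Beside the increases of Edn1 and Mt1, markers of injured tubule rose in 3 of 3 tested, of fibroblasts and matrix in 7 of 8 and of macrophages in 2 of 4. Over the whole array 5.67% of genes passed as higher. In that order, the markers summed to 2.50 to 4.74, 116 to 135 and 9.51 to 10.8 times the array median in wild type. In mutants they summed to 55.9 to 65.3, 419 to 444 and 40.6 to 56.0. The macrophage markers Adgre1 and Itgam were below the low-signal limit on all arrays, and the part of these cells in the differences was not tested.

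Arrays of one genotype were further apart for some clock genes than for others. The pooled SD within genotypes was 1.07 for Arntl, above 97.5% of all tested probes. Among the tested probes whose mean passed the low-signal limit, it was above 99.4%. Arntl passed that limit only through the mutants, its wild-type mean being 0.55. The spread of Arntl was carried by WT1, and leaving this array out gave 0.26. The pooled SD was 0.32 for Hlf, above 71.7% of the probes with a mean above the limit, 0.20 for Nr1d1, above 41.6%, and 0.16 for Clock, above 24.5%. The median of those probes was 0.23. Among the dimmer members the pooled SD was 1.18 for Per2, 0.79 for Cry1, 0.54 for Cry2 and 0.36 for Per1. Per2 and Cry1 each had 1 array at the floor.

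**Figure D3:**
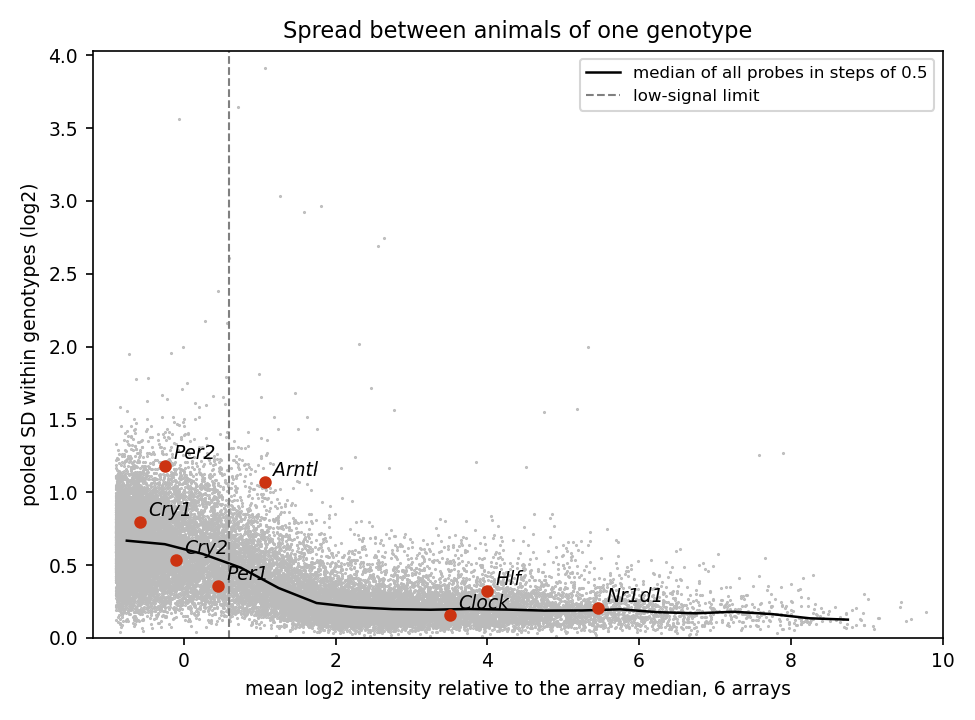
Pooled SD within genotypes on the log2 scale (vertical axis) against the mean log2 intensity over 6 arrays (horizontal axis) for all tested probes (grey), with 8 clock genes in red, the running median as a line and the low-signal limit dashed. Arntl at 1.07, or 0.26 when WT1 is left out, stands far above the median line, while Clock at 0.16 and Nr1d1 at 0.20 lie near the median line.

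Hlf was lowest on replicate 3 of each genotype, and so was its relative Tef, at 5.36 in wild type and 5.31 in mutants against 5.99 to 6.21 on the other 4 arrays. Of the other 2 Tef probes, 1 was also lowest there, at 4.17 and 3.93 against 4.62 to 4.96. The remaining probe, below the low-signal limit on all arrays, was highest there, at -0.40 and -0.59. Between the genotypes Tef differed by -0.05 ± 0.24, less than its spread within them (adjusted p = 0.951). The E-box repressor Ciart read -0.04 in wild-type replicate 3 and 1.05 to 1.66 on the other wild-type arrays, and 1.00 in mutant replicate 3 against 1.34 and 1.51. Of the 14 other loop components and clock-output genes with a mean above the limit and a value on all arrays, 9 were lowest on replicate 3 in both genotypes, against 9.48% of the 12895 probes that met the same conditions. They included Rora, Nampt, Usp2, Alas1, Scnn1a, Edn1 and Slc9a3 beside Tef and Ciart. A further Rora probe, above the limit on all arrays, did not share this order. It read 1.73, 1.84 and 2.11 in wild type and 2.20, 2.44 and 2.24 in mutants, lowest on replicate 1 of each. Edn1 met the condition only through the mutants, its wild-type values being below the limit. With a mean above the limit asked of each genotype, the count was 8 of 12, without Edn1, against 9.35% of 12027 probes. The same 9 genes were counted after quantile normalization and cyclic loess, where 12.1% and 13.6% of probes were lowest there.

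Arntl and Clock followed other arrays. Each was lowest on replicate 1 of both genotypes, as were 25.3% of all probes under these conditions. In mutants the gaps were small, with replicate 1 at 1.43 against 1.49 on replicate 2 for Arntl, and 3.47 against 3.54 for Clock. For Arntl the lowest wild-type value was the WT1 reading of -1.16, far below the other arrays. Arntl met the condition on the mean only through the mutants, its wild-type mean of 0.55 lying below the limit. Nr1d1 was highest on replicate 1 of both genotypes, as were 6.55% of probes. These patterns were noticed in the values and are given with no test, and Tef, Ciart, Rora, Usp2, Alas1 and Scnn1a were named after their values were seen. The labels do not say that animals of the same number were handled together.

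**Figure D4:**
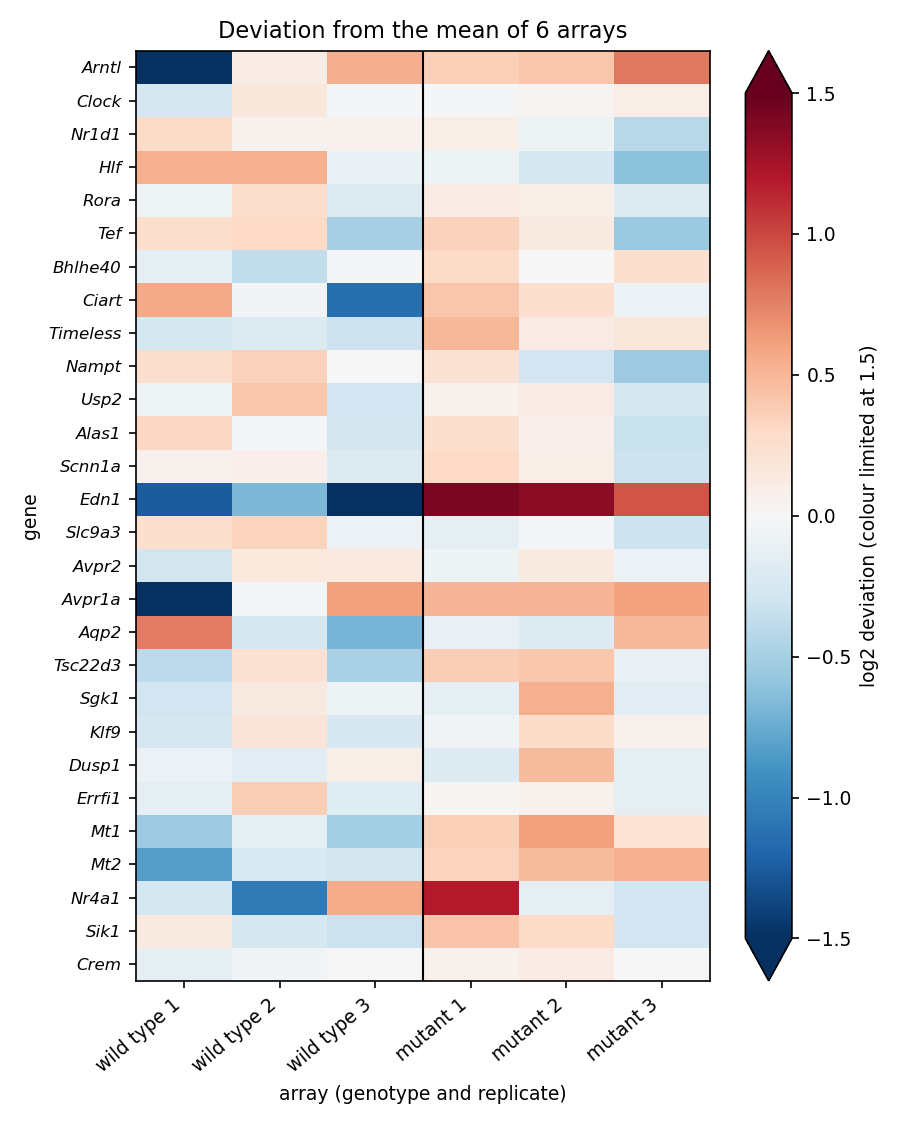
Deviation of each gene from its mean over 6 arrays on the log2 scale (colour, red higher and blue lower), with 1 column per array and 1 row per gene with a mean above the low-signal limit. The columns of replicate 3 are below 0 for genes including Hlf, Tef, Ciart, Rora, Usp2, Alas1 and Scnn1a. The colour is faint for Ciart in the mutant, at -0.08, and for Hlf in wild type, at -0.10. Hlf is below 0 on the other mutant arrays as well. Wild-type replicate 1 is deep blue for Arntl and Avpr1a.

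The genes most like Arntl were Avpr1a, the pyrimidine synthesis gene Cad, C1qtnf1, Auts2 and Itpripl1. Likeness was the root mean square distance between profiles over the 6 arrays, each centred on its own mean, among 9090 genes. The genes compared had a value on all arrays and a mean above the low-signal limit. Arntl had such a mean only through the mutants. The distances ran from 0.12 to 0.18 log2. Each named gene was lowest on wild-type replicate 1, at -0.73 or below, and at 0.94 or above on the other arrays. The genes most like Hlf were Pdlim1, a cytoskeletal adaptor, Adtrp, the pyrimidine breakdown gene Upb1, Eva1a and Obi1, at distances of 0.07 to 0.12. Each was highest on wild-type replicate 1 or 2 and lowest on mutant replicate 3. Of the clock and related genes, Avpr1a was among the 100 genes nearest to Arntl, and Nampt and Slc9a3 among the 100 nearest to Hlf.

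**Figure D5:**
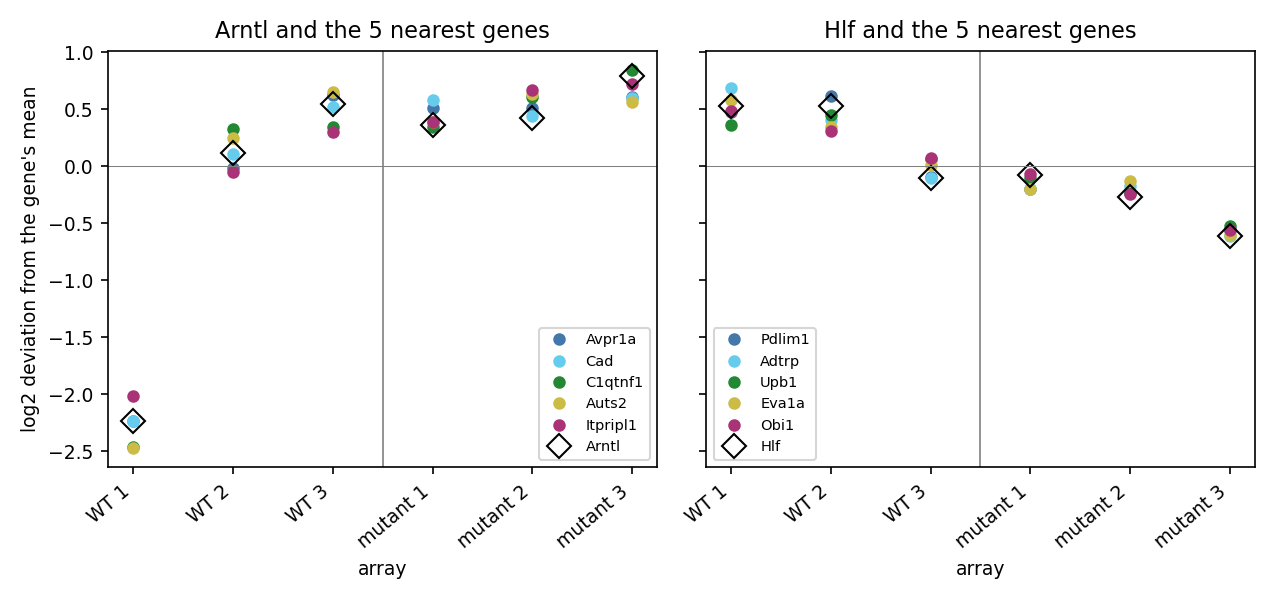
Log2 deviation from each gene's mean (vertical axis) on the 6 arrays (horizontal axis, WT for wild type) for Arntl and Hlf (open diamonds) and the 5 genes nearest to each (filled circles). The Arntl set is far below its other values on wild-type replicate 1 alone, where Arntl read -1.16, and the Hlf set is highest on wild-type replicates 1 and 2 and lowest on mutant replicate 3.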

How the data were processed

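The deposited table held linear intensities, background-subtracted and scaled by the authors to an array median just under 1, as its values show. The labels name neither the scanner software nor the scaling method. Each array was divided by its median, values at or below 0 were set to missing, values under the 10th percentile of positive values were raised to it, and values were put on a log2 scale. A probe needed values from 2 or more arrays of each genotype, and the dimmest 25% by mean were left out, leaving 25834 probes. Between 37.6% and 41.7% of an array's values exceeded the low-signal limit, the mode of the values plus 3 times the spread below it. The test was that of limma 3.58.1 under R 4.3.3 (lmFit, eBayes with an intensity trend, two-sided, Benjamini-Hochberg over all probes), and the code was tested on simulated data. The number of arrays limits the precision. Symbols came from the platform annotation, which can be old.

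The members, lists and tests were chosen with earlier results of these data known. All clock genes are named, and of each other list the members that passed, with up to 4 of the smallest p. Likeness was planned for Dbp and Arntl, and Hlf replaced Dbp, which had no usable probe. Alternatives covered scaling, floor, filters, variance models, a replicate block and each array left out. Medians for Arntl, the stricter condition on genotype means, and spreads and list-gene levels with an array left out were added after seeing the data.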

Additional observations from a re-analysis of the deposited data

How the results depend on the processing

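Of the clock genes, 1 passed at an adjusted p of 0.10, after quantile normalization, after cyclic loess and with the replicate block, each time Hlf, and 0 to 1 passed with arrays left out in turn. Of the other 4 lists, 4 genes passed at an adjusted p of 0.10, 1 with no intensity trend and 1 in replicates 2 and 3 alone, and 1 to 2 with arrays left out. The genes numbered 3, with Mt2 beside Edn1 and Mt1, with the dimmest 50% of probes left out, robust variance, array weights or the replicate block. Probes past the threshold numbered 191 with no intensity trend, 912 in replicates 2 and 3 alone, and 742 to 1230 with arrays left out, against 1392. The share higher in mutants, 76.4%, came to 61.5% with quantile normalization and to 62.9% with cyclic loess, and in the other direction to 93.7% with no intensity trend. With arrays left out it ran from 71.7% to 83.4%. Differences changed sign for Clock (-0.069 after quantile normalization, -0.039 after cyclic loess, -0.00032 in replicates 2 and 3 alone, -0.034 to 0.18 with arrays left out), for Per2 (0.090 with no floor, 0.38 with array weights, 0.080 in replicates 2 and 3 alone, -1.02 to 0.27 with arrays left out) and for Cry1 (-0.53 to 0.33 with arrays left out). Those of Arntl, Per1, Cry2, Nr1d1 and Hlf kept their sign in all alternatives run. The causes were not tested. Per3 entered the test only with no filter on dim probes (0.02, adjusted p = 0.994).

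The labels do not say that replicate numbers pair the animals. Deviations of same-numbered arrays correlated at 0.07, 0.02 and 0.07, too little to treat them as pairs, although each array correlated best with its own number. Same-numbered arrays did share their sex-linked pattern, which the replicate block takes up and the main fit does not. With the replicate block 1857 probes passed, and Hlf had an adjusted p of 0.00641 (limma). Signals below the low-signal limit restrict what can be said of Per1, Per2, Per3, Cry1 and Cry2.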

Other observations

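The low Arntl value belonged to a wider group of readings on the same array. On wild-type replicate 1, 49 of the 22989 probes measured on all arrays read at least 2 log2 units below every other array while the others were all above the low-signal limit. The same count was 5 on wild-type replicate 2 and on mutant replicate 1, and 0 on the remaining 3 arrays. After quantile normalization wild-type replicate 1 had 53 such probes and the other arrays 1 to 6, and after cyclic loess 24 and 1 to 7. The group held Arntl, Avpr1a, Cad, C1qtnf1 and Auts2 beside the transcription factor Snai1, the G protein regulator Rgs5 and the kinase Mapkapk2, named after their values were seen. Positions of the probes on the array were not used here.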
